A study of Mus musculus with 19 samples.

Results

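Immediate early genes were followed in mouse models of fibrolamellar carcinoma. This liver cancer carries a DNAJB1-PRKACA gene fusion, in which a chaperone's start is joined to the catalytic subunit of the cAMP-dependent protein kinase PKA. The set was given as 10 gene symbols, Fos, Fosb, Jun, Junb, Egr1, Nr4a1, Dusp1, Atf3, Btg2 and Ier2, a rule that uses no measured value, although the set was chosen with earlier results of these data known. In the table of embryonic livers 9 of the 10 were found among 13549 genes, and Fosb was not analysed there. In the tumour files all 10 were found among 17606 gene IDs.

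RNA sequencing covered 19 libraries in a pair of separate experiments. The first experiment used whole livers of mouse embryos at embryonic day 18.5, 5 of control and 4 of fusion genotype. The fusion group carries the Rosa26 LSL-DNAJB1-PKA-GFP transgene crossed to Alb-Cre, so that the albumin promoter drives Cre and opens the transgene in liver cells from mid-gestation. Which alleles the controls carry, their litters and the share of recombined cells are not given in the sources used here. The second experiment used tumours of the mouse cell line FL8, set in gelatin capsules under the skin of the flank of NSG mice, an immunodeficient strain without lymphocytes. When the mean tumour size reached 75 mm3, mice were given either the methocel carrier (vehicle) or palbociclib, which inhibits the cell cycle kinases CDK4 and CDK6. The oral dose was 75 mg/kg for 3 days, with 4 days off. The series text speaks of PBS injections for the controls, and the wording of the sample labels was followed. There were 5 tumours per treatment, all of 1 line, and the time from the last dose to collection is not given in the sources used here. Nothing says that the 5 tumours of a group came from separate mice, so their p-values measure only the spread between these samples.

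Immediate early genes are transcribed within minutes of a stimulus such as a growth factor, cAMP, stress or injury, without new protein synthesis, because the factors that switch them on are already present. The serum response factor with its ETS partners, activated by the MAP kinase cascade, and CREB, phosphorylated by PKA, are the best known of these factors. The products are mainly transcription factors, among them the subunits of the AP-1 dimer, and feedback proteins that shut the signal off. In the liver they are known for their fast and brief rise after partial removal of the organ.

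The windows upstream of the genes show where such factors could bind, and those of the genes on which the results turn are printed here. The windows used here, RefSeq sequence of the GRCm38.p6 assembly, covered 8 of the 10 genes, and none was at hand for Egr1 and Ier2. Each line gives the 250 bases upstream of the RefSeq start, 5′ to 3′ on the strand of the gene, and the last base is position -1. Capitals mark the cAMP response element (CRE), the binding sequence of CREB: the full palindrome TGACGTCA, its core TGACG on either strand, or the related form TGACNTCA. Junb, Jun and Dusp1 are the 3 genes that rose in fusion livers, Nr4a1 had the largest fold change of the 10 between the complete tumour groups, and Fos was the gene closest to 0 in the livers. The windows are chr8:84978749-84978998 (minus strand) for Junb, chr4:95052223-95052472 (minus) for Jun, chr17:26508473-26508722 (minus) for Dusp1, chr15:101266596-101266845 (plus) for Nr4a1 and chr12:85473640-85473889 (plus) for Fos.
Junb: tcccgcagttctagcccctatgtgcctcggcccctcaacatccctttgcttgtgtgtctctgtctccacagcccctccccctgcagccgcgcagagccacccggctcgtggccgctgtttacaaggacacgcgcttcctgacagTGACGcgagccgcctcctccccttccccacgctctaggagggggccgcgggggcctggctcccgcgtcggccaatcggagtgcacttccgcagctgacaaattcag
Jun: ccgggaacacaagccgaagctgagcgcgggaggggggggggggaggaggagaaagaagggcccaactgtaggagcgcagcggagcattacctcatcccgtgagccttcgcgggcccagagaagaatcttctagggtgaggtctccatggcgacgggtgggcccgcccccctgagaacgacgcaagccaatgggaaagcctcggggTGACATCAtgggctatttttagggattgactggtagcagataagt
Dusp1: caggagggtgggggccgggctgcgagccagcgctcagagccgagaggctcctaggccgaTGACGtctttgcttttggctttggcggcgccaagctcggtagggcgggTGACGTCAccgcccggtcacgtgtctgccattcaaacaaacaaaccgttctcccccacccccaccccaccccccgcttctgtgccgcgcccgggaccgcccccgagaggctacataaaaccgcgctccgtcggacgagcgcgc
Nr4a1: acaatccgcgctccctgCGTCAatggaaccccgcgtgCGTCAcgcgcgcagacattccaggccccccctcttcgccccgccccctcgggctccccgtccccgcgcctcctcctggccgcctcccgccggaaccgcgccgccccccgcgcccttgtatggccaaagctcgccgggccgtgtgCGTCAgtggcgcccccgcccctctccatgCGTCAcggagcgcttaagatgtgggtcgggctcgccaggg
Fos: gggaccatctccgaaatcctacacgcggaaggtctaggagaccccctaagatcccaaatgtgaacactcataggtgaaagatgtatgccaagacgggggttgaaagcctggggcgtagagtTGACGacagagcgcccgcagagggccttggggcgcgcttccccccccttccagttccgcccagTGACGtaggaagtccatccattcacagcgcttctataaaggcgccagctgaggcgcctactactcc

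The core was in 7 of the 8 windows, and in 17.8% of the 32851 upstream windows of all mouse genes of the same length. Junb held 1 at -106 to -102, Fos held 2 at -129 to -125 and -66 to -62, and Nr4a1 held 4 between -233 and -36. The full palindrome, which contains a core on each strand, was in 2 of the 8 windows, Dusp1 at -143 to -136 and Btg2 at -166 to -159, and in 1.55% of all windows. Jun had no core, and held TGACATCA at -45 to -38. The form TGACNTCA, which includes the full palindrome and was added to the search after the sequences had been seen, was in 3 of the 8 windows (Jun, Dusp1 and Btg2) and in 7.49% of all. The AP-1 site TGACTCA and the CArG box of the serum response factor, searched on both strands, were in 0 of the 8 windows, and in 4.46% and 1.47% of all windows. Sequence beyond the 250 bases upstream was not searched, and Egr1 and Ier2 had no window. The count of 0 therefore cannot decide whether the genes have such sites elsewhere. A match describes letters only, and no binding was measured here.

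Embryo values are raw counts, shown as CPM (counts scaled to a library total of 1000000, here with TMM factors), and tumour values are CPM as deposited. Depth, with M for 1000000, was 7.66 to 23.1 M counts in the control livers, 13.5 to 45.6 in the fusion livers, 2.96 to 33.9 in the vehicle tumours and 24.9 to 43.1 in the palbociclib tumours. A floor of 3 counts is worth 0.0658 to 0.392 CPM in a liver and 0.0695 to 1.01 CPM in a tumour, for counting error only. Prkaca, the mouse gene of the kinase part of the transgene, ranged from 36.3 to 50.5 CPM in control livers and from 52.0 to 114 CPM in fusion livers, so that its level fitted the labels in all 9. The liver markers Alb (16348 to 46773 CPM) and Hnf4a (287 to 1050 CPM) were present in every tumour, and Alb and Hnf4a in every embryo. The share of ribosomal protein genes split the livers in a way the labels do not name, with 9.52% to 9.92% in 4 of them (control 1 and 2, fusion 8 and 9) against 6.07% to 7.72% in the rest. Within the latter, Xist and Ddx3y showed male controls and female fusion embryos, and sex and genotype cannot be told apart there. Sex was uneven over all 9 livers too. Median Xist was 0.436 CPM in control and 204 CPM in fusion livers, and median Ddx3y 32.1 and 0.101 CPM, with both genes ranging widely in each group. In bulk tissue, fewer cells of a type and less RNA per cell cannot be told apart.

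The first comparison asks what the fusion kinase changes in the fetal liver, here for genes that PKA and MAP kinase signals are known to switch on. Junb, Jun and Dusp1 rose in the fusion livers, by 1.26 ± 0.24, 0.83 ± 0.21 and 0.65 ± 0.16 on the log2 scale (SE; edgeR, adjusted p = 0.00723, 0.0246 and 0.0216). The other 6 genes did not pass the threshold, an adjusted p of 0.05. These 3 of 9 compare with 5.99% of the 13316 genes tested that were called higher and 12.8% called in either direction. The median log2 fold change of the 9 was 0.59, against -0.01 for all genes tested. In sign, 7 of 9 were above 0, against 48.3% of all genes, and 6 were higher at an unadjusted p under 0.05, against 13.9%. All fusion livers lay above all control livers for 4 of the 9, against 8.37% of all genes. With Xist, a marker of sex, as a covariate, 4 of the 9 passed in edgeR, against 11.5% of all genes in that fit. There 4 had an unadjusted p under 0.05, against 29.3% of all genes.

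**Figure D1:**
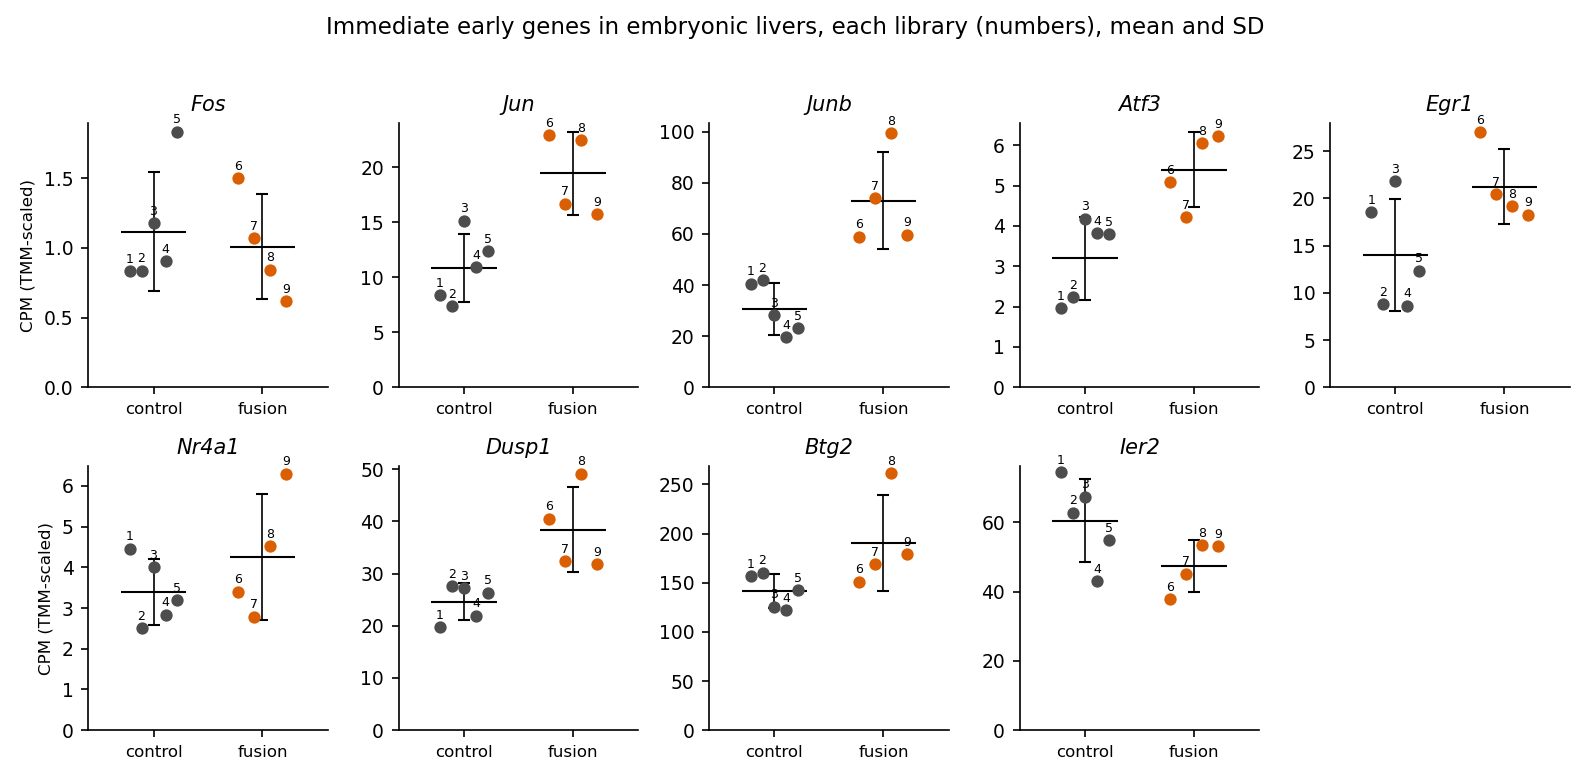
CPM of the 9 genes measured in embryonic livers, with a point for each library numbered as in the labels, a horizontal line at the group mean and a bar of 1 SD (5 control, 4 fusion). For Junb, Jun, Dusp1 and Atf3 every fusion point lies above every control point, while for Fos, Nr4a1, Btg2, Egr1 and Ier2 the groups overlap.

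Junb and Jun, JUN subunits of AP-1, had the largest log2 fold changes of the 9. Junb, a JUN protein that often acts as a brake on c-Jun, lies at chr8:84974484-84978718 on the minus strand of GRCm38. It was at 40.5, 41.8, 28.1, 19.7 and 23.1 CPM in controls 1 to 5 and at 58.9, 73.9, 99.3 and 59.7 CPM in fusions 6 to 9. The lowest fusion liver was thus above the highest control, and fusion 8 was the highest of all. Means were 30.6 ± 10.1 (SD, n = 5) and 72.97 ± 18.9 CPM (SD, n = 4), a 2.40-fold change in the edgeR fit. Control 1 and control 2 were the highest controls, and within their ribosomal protein class (control 1 and 2, fusion 8 and 9) the log2 fold change was 0.96 (edgeR adjusted p = 0.0133). Within the other 5 livers it was 1.49 (edgeR adjusted p = 0.000249). Junb passed the threshold in all 16 alternative analyses, with log2 fold changes of 0.96 to 1.49. Its exons overlap those of Prdx2, a peroxidase gene on the opposite strand, and no source used here says whether counting used strand. Prdx2 was at 1298 to 2499 CPM in control and 1299.5 to 2629 CPM in fusion livers, with a log2 fold change of 0.09 (edgeR adjusted p = 0.846).

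Jun, the gene of c-Jun (chr4:95049034-95052222, minus strand, a single exon), was at 8.38, 7.39, 15.1, 10.9 and 12.3 CPM in the controls and at 22.9, 16.7, 22.5 and 15.7 CPM in the fusion livers. The groups did not overlap, and the narrowest gap was between control 3 and fusion 9. Means were 10.8 ± 3.11 CPM (SD, n = 5) and 19.4 ± 3.75 CPM (SD, n = 4). The call was near the threshold: leaving out control 1 gave an edgeR adjusted p of 0.0524, leaving out fusion 6 gave 0.0636 and leaving out fusion 8 gave 0.0717, with log2 fold changes of 0.74 to 0.76. Among the 4 livers with the higher ribosomal protein share the log2 fold change was 1.27 and among the other 5 it was 0.65, both past the threshold (edgeR adjusted p = 0.00491 and 0.0282).

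Atf3, a stress-induced member of the ATF family that binds AP-1 and CRE sequences, was low, at 1.96, 2.23, 4.19, 3.82 and 3.80 CPM in the controls and 5.09, 4.21, 6.05 and 6.23 CPM in the fusion livers. Its groups did not overlap, by the margin of control 3 at 4.19 and fusion 7 at 4.21 CPM. The log2 fold change of 0.72 ± 0.24 missed the threshold in edgeR (adjusted p = 0.0740) and passed it in DESeq2 (adjusted p = 0.0322). Fitted by ribosomal protein share, its log2 fold change was 1.58 in control 1 and 2 against fusion 8 and 9 (edgeR adjusted p = 0.00589) and 0.26 in the other 5 livers (edgeR adjusted p = 0.325). The difference between these classes was not tested, and in the other 5 livers sex and genotype cannot be told apart.

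Fos, the dimer partner of the JUN proteins and the best known of the immediate early genes, was near the bottom of the range. It was at 0.832, 0.837, 1.18, 0.904 and 1.83 CPM in the controls and 1.501, 1.07, 0.843 and 0.616 CPM in the fusion livers, from 6 to 72 counts a library. The groups overlapped fully except for fusion 9 at the bottom and control 5 at the top. The log2 fold change was -0.12 ± 0.33 (edgeR adjusted p = 0.850), and its sign turned without control 5 (0.16) or fusion 9 (0.05) and within the 5 livers of lower ribosomal protein share (0.04). So Junb and Jun, which code for one side of the AP-1 dimer, passed the threshold and Fos did not, but the difference between these genes was not tested.

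The other transcription factors of the set, Egr1 and Nr4a1, did not pass. Egr1, a zinc finger factor induced through the serum response factor, was at 18.5, 8.78, 21.8, 8.63 and 12.3 CPM in the controls and 27.0, 20.5, 19.2 and 18.3 CPM in the fusion livers. All 4 fusion livers were above the control median, but control 1 and control 3 reached into their range. Its log2 fold change was 0.59 ± 0.27 (edgeR adjusted p = 0.168). Nr4a1, an orphan nuclear receptor strongly induced by cAMP, was at 4.46, 2.51, 4.00, 2.84 and 3.19 CPM in the controls and 3.40, 2.79, 4.52 and 6.30 CPM in the fusion livers. Fusion 8 and fusion 9 were above every control, and fusion 6 and fusion 7 lay inside the control range. The log2 fold change of Nr4a1 was 0.29 ± 0.26 (edgeR adjusted p = 0.490), and -0.08 within the 5 livers of lower ribosomal protein share.

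Among the feedback genes, Dusp1 passed. Dusp1 codes for a phosphatase that inactivates MAP kinases, and the annotation places it at chr17:26505590-26562128 on the minus strand. It was at 19.7, 27.6, 27.2, 21.9 and 26.4 CPM in the controls and 40.5, 32.3, 49.1 and 31.8 CPM in the fusion livers, with no overlap. Means were 24.6 ± 3.55 (SD, n = 5) and 38.4 ± 8.17 CPM (SD, n = 4). Without fusion 8, the highest library, the log2 fold change was 0.51 and the call was lost (edgeR adjusted p = 0.0629). Ergic1, whose exons overlap Dusp1 on the opposite strand, had a log2 fold change of -0.28 (edgeR adjusted p = 0.134). Leaving out fusion 8 left Junb alone past the threshold, 1 of 9. The calls over all genes fell too, to 987 of 13460 (7.33%).

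Btg2, an antiproliferative gene of the BTG/TOB family, was at 157, 160, 125, 122 and 142 CPM in the controls and 151, 169, 262 and 179 CPM in the fusion livers. Fusion 8 stood highest again and fusion 6 lay inside the control range. The log2 fold change was 0.43 ± 0.17 (edgeR adjusted p = 0.121). Ier2, a small nuclear protein of uncertain function, went the other way, at 74.4, 62.7, 67.4, 43.0 and 54.8 CPM in the controls and 37.7, 45.2, 53.4 and 53.1 CPM in the fusion livers. All 4 fusion livers were below the control median, and control 4 lay among them. Its log2 fold change was -0.35 ± 0.17 (edgeR adjusted p = 0.189). With the ribosomal protein split as a covariate, 6 of the 9 passed: Atf3 (0.74, edgeR adjusted p = 0.0218) and Btg2 (0.38, edgeR adjusted p = 0.0244) were added as higher and Ier2 (-0.39, edgeR adjusted p = 0.0264) as lower. That fit called 4345 of the 13316 genes (32.6%), against 1704 without the covariate.

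Fusion 8 had the highest mean of the 9 genes, 0.45 above their own means on the log2(CPM + 1) scale, and control 4 the lowest, at -0.42. All 4 fusion livers were above 0 (0.12 to 0.45), and the controls were at -0.42 to 0.01. Heat shock genes moved with the groups: the 12 of that list had a summed level of 3184 to 4112 CPM in controls, against 5464 to 6217 CPM with the fusion. The 10 macrophage markers summed to 1156 to 1488 CPM in control and 999.0 to 1193 CPM in fusion livers, the 10 neutrophil markers to 5823 to 8281 and 4580.3 to 6971 CPM, and no marker of either list was at 0. Their part in the rise of Junb, Jun and Dusp1 was not tested.

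The other genes of the response were read from lists of known early genes. Of 7 other AP-1 genes tested, 0 passed in edgeR (0 at an unadjusted p under 0.05), and their median log2 fold change was -0.12. Over all genes 12.8% passed and 29.3% had an unadjusted p under 0.05, so few of 7 would pass at the background share. By the smallest p, Mafk was at 0.17 and Maff at 0.25, both small MAF factors. Of 14 other early transcription factors, 1 passed: Csrnp1, a nuclear protein of the cysteine and serine rich family, averaged 23.1 ± 1.82 CPM in controls (SD, n = 5) and 36.6 ± 4.27 with the fusion (SD, n = 4; log2 fold change 0.66, edgeR adjusted p = 0.00406). Against 5.99% of all genes called higher, 1 of 14 is a share near the background, and the median of these 14 was 0.10.

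Of 29 early feedback and signal genes, 6 rose and 1 fell, against 5.99% and 6.81% of all genes, with a median log2 fold change of 0.15. The 4 with the largest rise were Dusp4, a nuclear MAP kinase phosphatase, Gadd45g, a growth arrest gene, and the kinases Sgk1 and Sik1, the latter known to be induced by cAMP. Dusp4 was at 0.310 ± 0.149 CPM in controls, close to the floor, and at 1.53 ± 0.673 CPM in fusion livers (log2 fold change 2.21, edgeR adjusted p = 0.00535). Gadd45g went from 17.1 to 39.1 CPM (log2 fold change 1.19, edgeR adjusted p = 0.000891), Sgk1 from 13.6 to 30.9 CPM (1.18, edgeR adjusted p = 0.00285) and Sik1 from 26.4 to 57.2 CPM (1.11, edgeR adjusted p = 0.00111). Groups did not overlap for any of these 4, and each passed in every alternative in which it was tested. Rhob, a small GTPase, fell by 0.38 on the log2 scale (edgeR adjusted p = 0.0468), a call that needed control 2, 3, 4 and 5 and fusion 6, 7 and 9: without any of these the fit gave edgeR adjusted p-values of 0.0624 to 0.133. Within the 4 livers of higher ribosomal protein share Rhob was at -0.18 (edgeR adjusted p = 0.423), within the other 5 at -0.55 (edgeR adjusted p = 0.00816), and with Xist as a covariate its edgeR adjusted p was 0.0804.

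Of 28 kinases and factors upstream of the early genes, 2 rose and 1 fell, against 5.99% and 6.81% of all genes, and the median was 0.10. The calls were Rps6ka3, the kinase RSK2 that phosphorylates CREB (0.48, edgeR adjusted p = 0.0487), and the MAP kinase cascade members Braf (0.46, edgeR adjusted p = 0.0285) and Araf (-0.40, edgeR adjusted p = 0.0316). Each of these 3 calls was lost by leaving out single libraries. Rps6ka3 lost its call without any single liver of the 9, with log2 fold changes of 0.36 (without fusion 6) to 0.54. Braf lost it when control 3 or 5 or fusion 6, 7 or 8 was left out (edgeR adjusted p = 0.0529 to 0.0798), and Araf without control 1, 2, 3 or 5 or any fusion liver (edgeR adjusted p = 0.0516 to 0.0901). With Xist as a covariate the calls of Rps6ka3 and Braf were lost as well (edgeR adjusted p = 0.0598 and 0.0566). Within the 4 livers of higher ribosomal protein share Rps6ka3 was at 0.54 (edgeR adjusted p = 0.0565) and Braf at 0.36 (edgeR adjusted p = 0.162). Within the other 5 livers Araf was at -0.25 (edgeR adjusted p = 0.12).

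Of 12 heat shock genes, which answer to another stress factor, 7 rose and 0 fell in edgeR (0 lower at an unadjusted p under 0.05), against 5.99% and 6.81% of all genes, with a median log2 fold change of 0.56. The constitutive chaperone Hspa8 went from 835 ± 46.5 (SD, n = 5) to 1758 ± 228 CPM (SD, n = 4; log2 fold change 1.07, edgeR adjusted p = 0.000945). The mitochondrial co-chaperonin Hspe1 rose by 0.86 on the log2 scale (edgeR adjusted p = 0.00855). Hspa1b, an inducible HSP70, had a log2 fold change of 1.40 (edgeR adjusted p = 0.0464) with overlapping groups, and 0.76 without fusion 6 (edgeR adjusted p = 0.166). It also lost its call without any single control or without fusion 8 (edgeR adjusted p = 0.0584 to 0.105). Hsp90ab1, a cytosolic HSP90, was at 0.57 (edgeR adjusted p = 0.0449) and its call was lost when control 3, 4 or 5 or fusion 7, 8 or 9 was left out (edgeR adjusted p = 0.0661 to 0.112). Dnajb1, the gene whose start is part of the fusion, was also among the 7, at 0.42 with overlapping groups (edgeR adjusted p = 0.0493). Whether reads of the transgene were counted for it was not tested.

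The second comparison asks what palbociclib changes in established FL8 tumours. All 10 early genes had a lower mean under palbociclib, but none passed the threshold: every limma adjusted p was 0.953. No gene of the 12829 tested passed, 0% of the total, so the count of 0 of 10 says nothing particular about these genes, while 586 genes (4.57%) had an unadjusted p under 0.05. Of the 10, 4 had an unadjusted p under 0.05, all lower, against 0.842% of all genes. All 10 log2 fold changes were below 0, against 31.2% of all genes and 49.9% after TMM scaling. The median was -0.83, against 0.14 for all genes. With TMM factors the median of all genes moved to 0.00, and that of the 10 to -0.99, with all 10 still below 0. The groups overlapped for all 10 genes, and 13 genes in all, 0.101% of those tested, were lower under palbociclib without overlap.

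**Figure D2:**
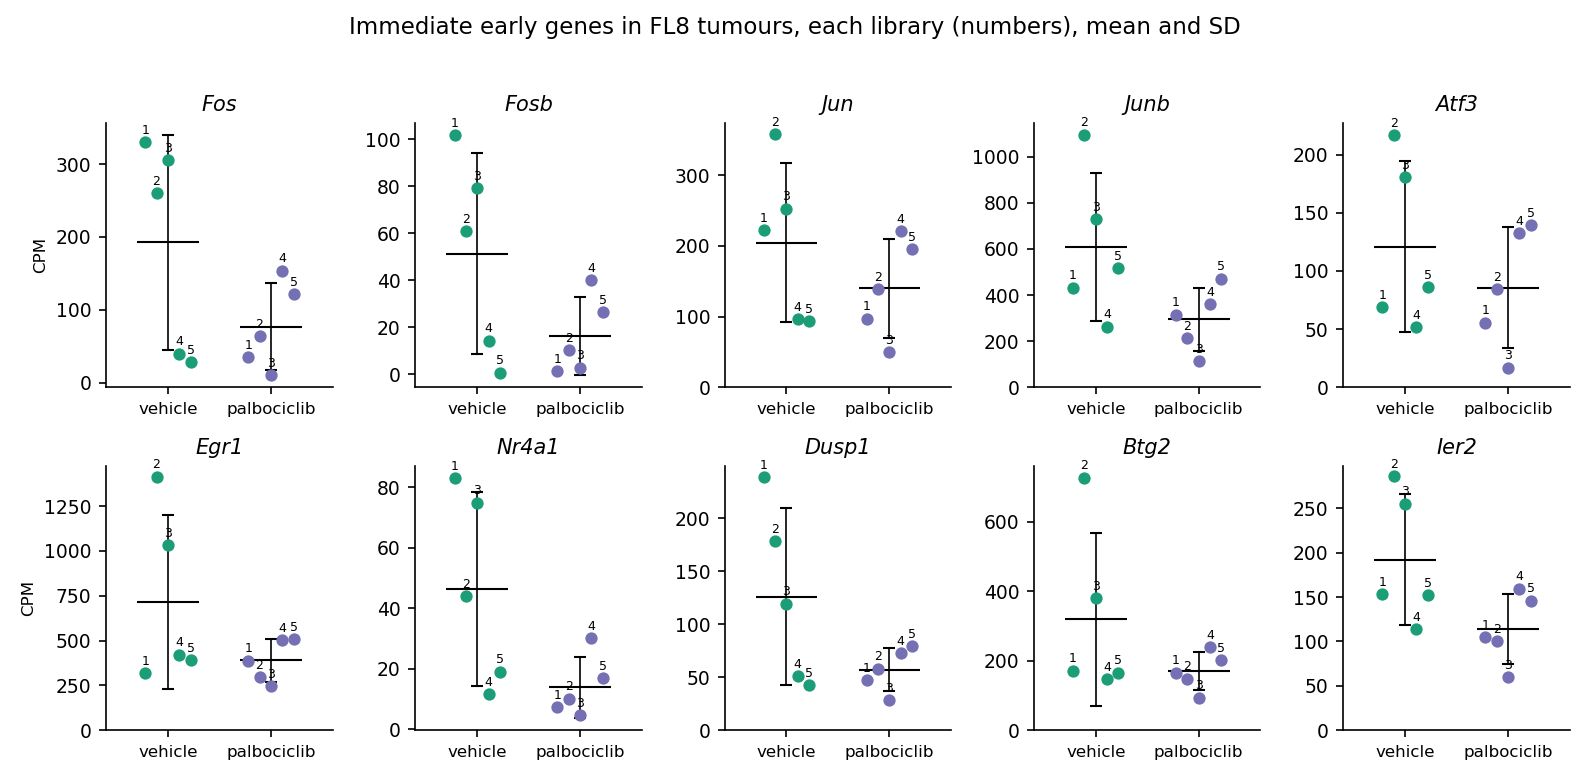
CPM of the 10 genes in FL8 tumours, with a point for each library numbered within its treatment, a horizontal line at the group mean and a bar of 1 SD (5 vehicle, 5 palbociclib). Vehicle 1 to 3 hold the highest values for Fos, Fosb, Jun, Nr4a1 and Dusp1, and vehicle 4 lies among the palbociclib tumours for every gene.

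Fos (chr12:85473890-85477273, plus strand) was at 330, 260, 305, 39.9 and 28.1 CPM in vehicle 1 to 5 and at 35.2, 63.7, 10.4, 154 and 122 CPM in palbociclib 1 to 5. Vehicle 1 to 3 were above every treated tumour, while vehicle 4 was below 3 of the 5 and vehicle 5 below 4. Means were 193 ± 147 (SD, n = 5) and 76.99 ± 59.8 CPM (SD, n = 5), and the log2 fold change was -1.19 ± 0.73 (limma, unadjusted p = 0.122). Fosb, a paralogue with the same role in the dimer (chr7:19302696-19310051, minus strand), was at 102, 60.9, 79.3, 14.4 and 0.677 CPM under vehicle and 1.51, 10.4, 2.82, 40.1 and 26.4 CPM under palbociclib. The lowest value, vehicle 5, stands for 2 reads in the shallowest library and is under the floor of 3. Fosb ranked the vehicle tumours as Fos did and the treated ones too, apart from palbociclib 1 and 3, and its log2 fold change was -1.35 ± 0.96 (limma, unadjusted p = 0.178). Single libraries moved both values: Fos was at -0.62 without palbociclib 3, and Fosb at -0.83 without palbociclib 1, -0.86 without vehicle 1 and -2.34 without vehicle 5.

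The JUN genes repeated the split within the vehicle group in part. Jun was at 222, 358, 252, 96.4 and 93.0 CPM under vehicle and 97.1, 138, 49.6, 220 and 195 CPM under palbociclib (log2 fold change -0.53 ± 0.42; limma, unadjusted p = 0.232). Vehicle 1 to 3 were above every treated tumour, but vehicle 1 and palbociclib 4 lay side by side, and the log2 fold change was -0.20 without palbociclib 3 and -0.28 without vehicle 2. Junos, an antisense RNA beside Jun, reached at most 1.29 CPM. Junb was at 432, 1096, 730, 263 and 517 CPM under vehicle and 314, 213, 112, 360 and 470 CPM under palbociclib. In CPM as deposited, vehicle 2, 3 and 5 were above all treated tumours, and vehicle 1 and 4 were not, though scaling would raise vehicle 1. Its log2 fold change was -1.04 ± 0.40 (limma, unadjusted p = 0.0193), while that of Prdx2 on the opposite strand was -0.06. Atf3 was at 69.0, 217, 181, 51.5 and 86.3 CPM under vehicle and 55.6, 84.3, 17.0, 132 and 139 CPM under palbociclib, with vehicle 2 and 3 alone above the treated range. The log2 fold change of Atf3 was -0.59 ± 0.50 (limma, unadjusted p = 0.254), and -0.11 without palbociclib 3, its lowest library, -0.33 without vehicle 2 and -0.40 without vehicle 3.

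Nr4a1 (chr15:101254269-101274795, plus strand) had the largest fold change of the 10 with all tumours in the fit, while without vehicle 5 it was at -1.82 on the log2 scale and Fosb at -2.34. It was at 82.9, 43.9, 74.8, 11.4 and 18.9 CPM under vehicle and 7.33, 10.1, 4.55, 30.0 and 16.7 CPM under palbociclib. Vehicle 1 to 3 were above every treated tumour, and vehicle 4 and 5 were between palbociclib 2 and 4. Means were 46.4 ± 32.1 and 13.7 ± 10.1 CPM (SD, n = 5 each), with a log2 fold change of -1.59 ± 0.52 (limma, unadjusted p = 0.00733). Egr1 was at 320, 1414, 1033, 421 and 390 CPM under vehicle and 388, 297, 247, 502 and 509 CPM under palbociclib. Vehicle 2 and 3 stood well above all others. In CPM as deposited, the other 3 vehicle tumours lay inside the treated range, though scaling would raise vehicle 1. Its log2 fold change was -0.68 ± 0.39 (limma, unadjusted p = 0.0990), and -0.37 without vehicle 2.

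Dusp1 was at 239, 178, 119, 51.1 and 42.6 CPM under vehicle and 47.0, 58.1, 28.4, 72.5 and 79.0 CPM under palbociclib, again with vehicle 1 to 3 above and vehicle 4 and 5 inside the treated range. The log2 fold change was -0.92 ± 0.43 (limma, unadjusted p = 0.0458), and that of the overlapping gene Ergic1 was 0.48. Btg2 was at 171, 727, 381, 148 and 166 CPM under vehicle and 165, 148, 93.5, 239 and 201 CPM under palbociclib. Like Egr1 and Atf3, it was above the treated range in vehicle 2 and 3 alone, in CPM as deposited. Its log2 fold change was -0.68 ± 0.40 (limma, unadjusted p = 0.106), and -0.31 without vehicle 2. Ier2 was at 153, 286, 256, 114 and 153 CPM under vehicle and 105, 100, 59.9, 159 and 146 CPM under palbociclib. Palbociclib 4 was above 3 of the 5 vehicle tumours in CPM as deposited, vehicle 1 among them. The log2 fold change of Ier2 was -0.74 ± 0.31 (limma, unadjusted p = 0.0286).

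**Figure D3:**
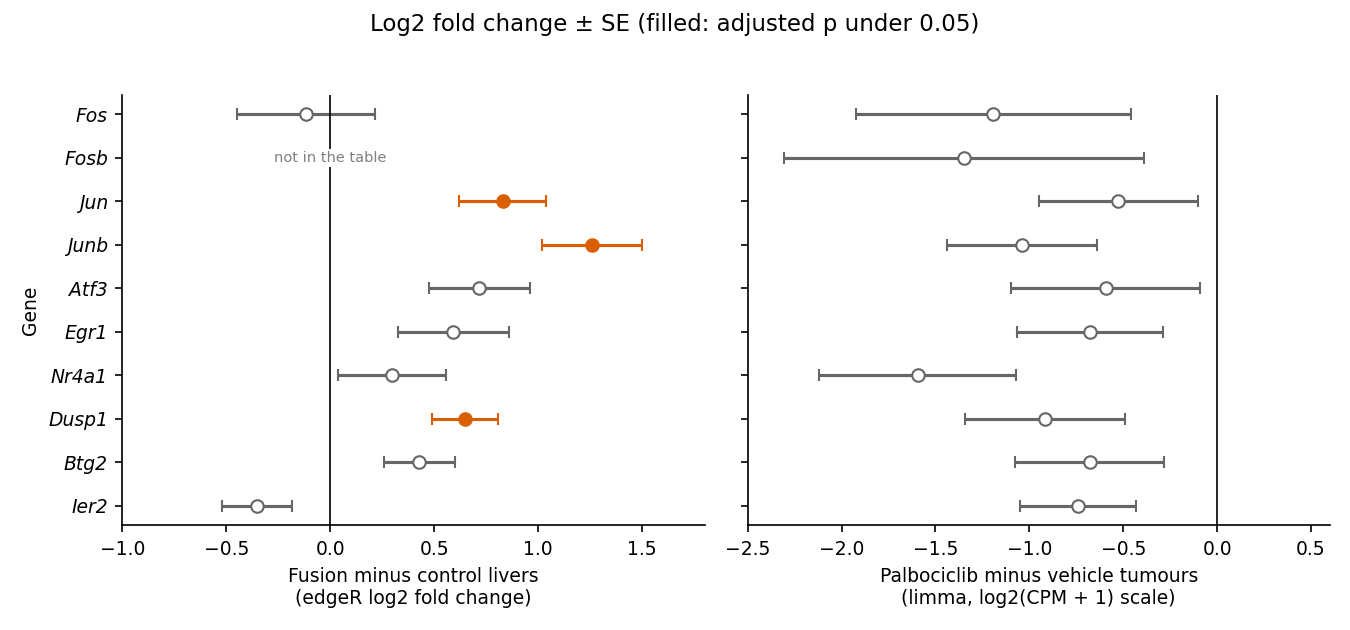
Log2 fold change and standard error of each gene, with fusion against control livers on the left (edgeR) and palbociclib against vehicle tumours on the right (limma on log2(CPM + 1)). Filled points passed an adjusted p of 0.05: Junb, Jun and Dusp1 in the livers and 0 of 10 in the tumours, where all 10 points lie below 0.

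The spread between tumours of a group was wide for these genes. The SD of log2(CPM + 1) had a median of 0.97 over the 10 genes in the vehicle group and 0.83 in the palbociclib group, against 0.60 and 0.34 for all genes tested. Fosb (2.47 and 1.75) and Fos (1.72 and 1.51) had the widest spread in both groups. In the livers the corresponding medians were 0.30 in controls and 0.27 in fusion livers, against 0.22 for all genes in each. Fos therefore varied by a factor of 11.8 between the vehicle tumours and of 2.20 between the control livers.

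**Figure D4:**
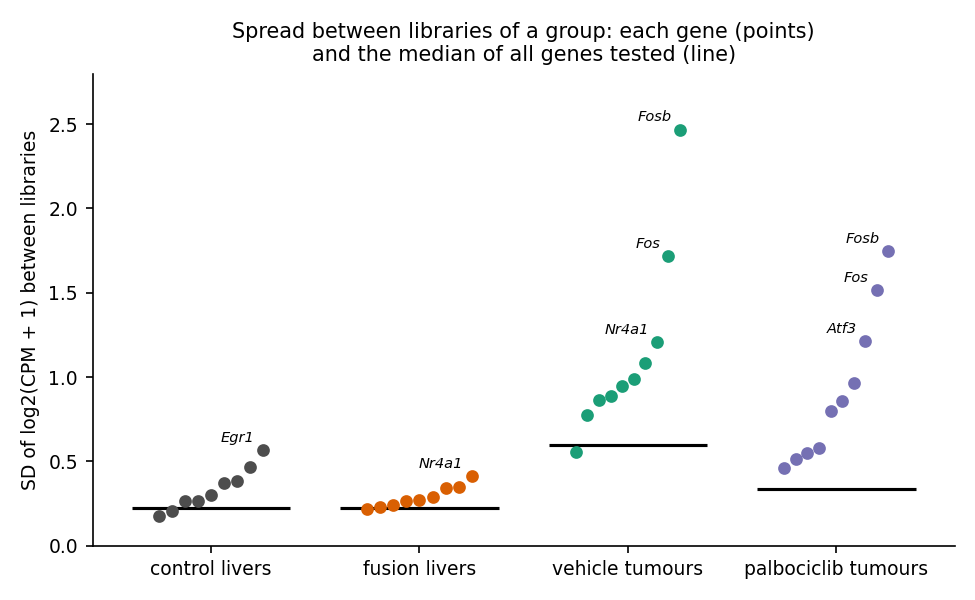
Standard deviation of log2(CPM + 1) between the libraries of each group, with a point for each gene and a line at the median of all genes tested in that group. In the tumours Fosb and Fos stand highest, and the gene medians of 0.97 and 0.83 lie above the lines at 0.60 and 0.34.

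The genes shared the order of the tumours to a large extent. Palbociclib 4 and 5 were both above palbociclib 1, 2 and 3 for 10 of 10 genes, against 9.79% of all genes, and palbociclib 3 was the lowest of its group for 9 of 10, against 24.1% of all genes. Vehicle 1, 2 and 3 were all above vehicle 4 and 5 for 7 of 10, against 7.29% of all genes, and above every treated tumour for 5 of 10, against 1.72%. These orders were noticed in the data and are given as a description, with no test. They use CPM as deposited, and the places of vehicle 1 depend on that scale. The mean of the 10 genes, each relative to its own mean over all tumours on the log2(CPM + 1) scale, was 0.81, 1.44 and 1.23 in vehicle 1 to 3 and -0.52 and -0.64 in vehicle 4 and 5. It was -0.84, -0.47, -1.71, 0.43 and 0.27 in palbociclib 1 to 5. The treated tumours thus held both the lowest library of all and a pair above the lower vehicle tumours.

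**Figure D5:**
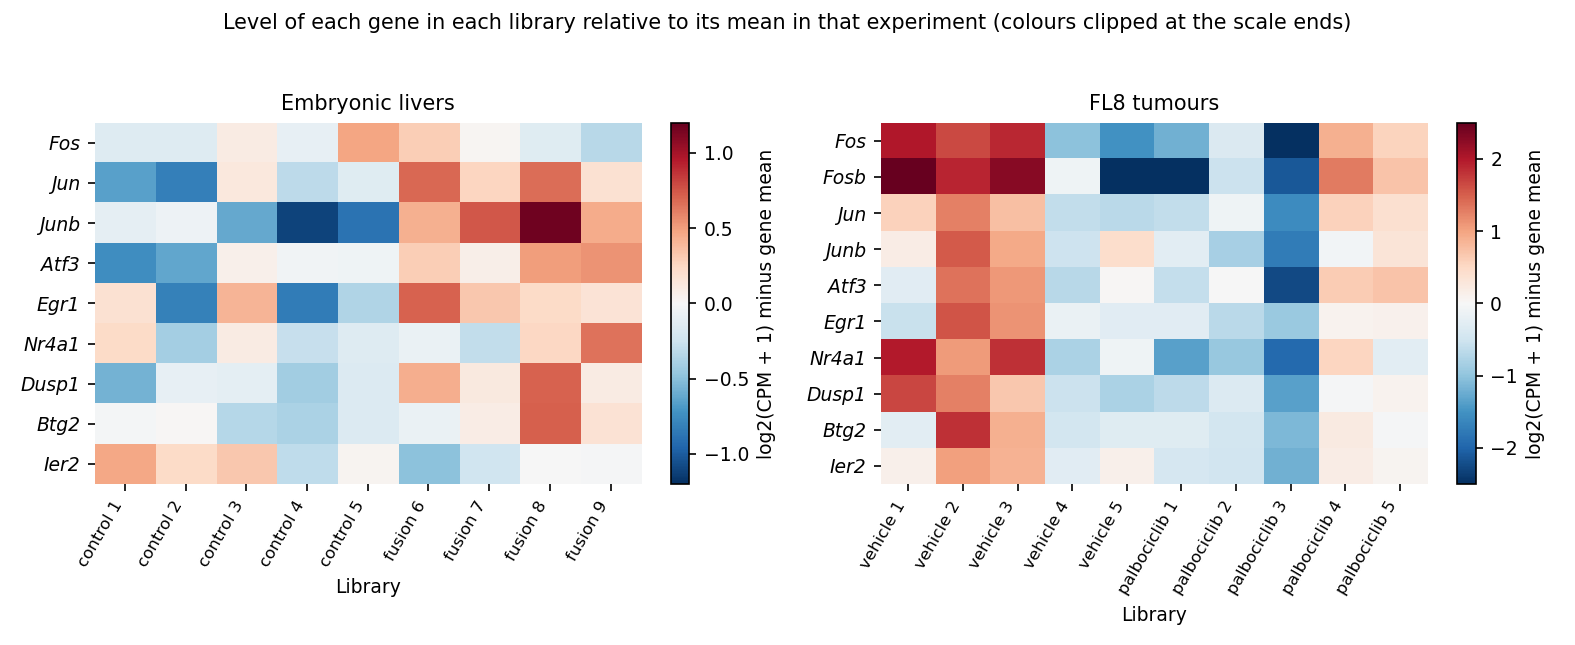
Level of each gene in each library relative to its mean within the experiment, on the log2(CPM + 1) scale, for livers (left) and tumours (right), which have separate colour scales. In the tumours the red columns of vehicle 1 to 3 and the blue column of palbociclib 3 run through most genes, and in the livers the 4 fusion columns are mostly red except for Fos and Ier2.

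Erythroid and endothelial levels also differed between vehicle 1 to 3 and the other tumours. The ribosomal protein share of all reads was lower in these 3 as well, with a limit for vehicle 1 given below. The hepatocyte markers, the macrophage markers and the mitochondrial share stood out in vehicle 1 alone. These sums and shares are of all reads, mitochondrial ones included. The high mitochondrial share of vehicle 1 thus lowers every other value of that tumour, and its low hepatocyte sum is not a separate difference. The 10 hepatocyte markers summed to 40536.5 CPM in vehicle 1 and to 82327 to 128374 CPM in the other tumours. Of the 10 erythroid markers, 8 were tested and all 8 had a log2 fold change below 0, with a median of -1.76 and 4 at an unadjusted p under 0.05 (limma). The list summed to 16928.5, 36707 and 96678 CPM in vehicle 1 to 3, 10542 and 1298 CPM in vehicle 4 and 5, and 1735 to 8458 CPM under palbociclib, where the erythroid factor gene Gata1 was at 0 in every library. The 9 endothelial markers measured summed to 232, 135 and 177 CPM in vehicle 1 to 3, 77.9 and 85.9 CPM in vehicle 4 and 5, and 67.0 to 105 CPM under palbociclib. Macrophage markers, 9 measured of 10, summed to 1476 CPM in vehicle 1 and to at most 179 CPM in the other tumours. The mitochondrial share was 46.6% in vehicle 1 and 1.24% to 6.47% elsewhere. Ribosomal protein genes took 4.45%, 4.37% and 6.13% in vehicle 1 to 3, 7.03% and 10.6% in vehicle 4 and 5, and 7.02% to 7.80% under palbociclib. The low share in vehicle 1 cannot be told apart from the effect of its mitochondrial reads. That limit does not hold for vehicle 2 and 3, whose mitochondrial shares were 1.24% and 2.27%. The part of all these differences in the levels of the early genes was not tested.

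Leaving out 1 tumour at a time kept all 10 log2 fold changes below 0 and called none. The number at an unadjusted p under 0.05 went from 4 to 1 without vehicle 2 or palbociclib 3, to 2 without vehicle 3 or palbociclib 1 or 2, and to 6 without vehicle 5, the shallowest library. The share of all genes lower at that p moved as well, from 0.842% with all tumours. It was 0.749% without vehicle 2, 0.514% without palbociclib 3, 0.46% without vehicle 3 and 1.62% without vehicle 5. Without palbociclib 1 or 2 it was 0.833% or 0.669%. Without palbociclib 3 the median of the 10 was -0.58. Leaving out vehicle 1 and vehicle 5 together, an alternative chosen after seeing the data, gave a median of -1.13 and 7 genes at an unadjusted p under 0.05, with 0 called. In that fit the background rose too, with 1092 of 12758 genes (8.56%) at an unadjusted p under 0.05, 550 of them lower (4.31%), and a median over all genes of -0.05. There Egr1 was at -1.18, Btg2 at -1.09 and Fosb at -2.02.

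The other early genes were mostly below 0 in the tumours too, and 0 of any list passed in limma. Of 6 other AP-1 genes 5 were below 0 (median -0.30; 0 at an unadjusted p under 0.05), among them Jund at -0.40 and Jdp2, a dimer partner that represses AP-1, at -0.54. Jund was at -0.17 without palbociclib 3 and -0.22 without vehicle 2, and Jdp2 at -0.23 without vehicle 1 and 0.05 without vehicle 1 and 5. Of 16 other early transcription factors 13 were below 0 (median -0.36; 1 at an unadjusted p under 0.05). Klf2, a factor best known from endothelium, was at 4.56 to 40.2 CPM under vehicle and 3.38 to 4.41 CPM under palbociclib with no overlap (log2 fold change -1.16; limma, unadjusted p = 0.0159). Its highest value was in vehicle 1, and without that library it was at -0.68. Klf4 was at -0.80, and at -0.46 without palbociclib 3. Of 32 feedback and signal genes 29 were below 0 (median -0.33; 0 at an unadjusted p under 0.05), among them the phosphatase gene Dusp2 at -1.11 and Zfp36l2, which codes for an RNA-decay protein, at -0.60 (-0.40 without palbociclib 2). Dusp2 was at 12.7 CPM in vehicle 1, its highest library, and without it was too low to be tested. Over all genes the share below 0 was 31.2%, and 49.9% with TMM factors, where the lists had 6 of 6, 13 of 16 and 31 of 32 genes below 0. The 27 upstream kinases and factors had a median of 0.10 (23 above 0, against 68.8% of all genes; 0 at an unadjusted p under 0.05), and with TMM factors a median of -0.02 (11 above 0, against 50.1% of all genes). Among them were Braf at -0.42 and Elk1, an ETS partner of the serum response factor, at 0.66, or 0.20 without vehicle 5. Of 12 heat shock genes 5 were above and 7 below 0, with Hspb1 at -0.98 (limma, unadjusted p = 0.0121) and Hspa1b at -0.99.

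Compared per length (CPM per kilobase of annotated exons), the order of the genes differed between livers and tumours. In control livers Btg2 (51.5) and Ier2 (39.7) were highest, with overlapping ranges, followed without overlap by Junb (13.3), then Dusp1 (7.42) and Jun (3.40). Egr1 (3.13), Atf3 (1.49), Nr4a1 (0.968) and Fos (0.475) followed, and each of these neighbours in the order overlapped, Jun and Egr1 included. In fusion livers Btg2 (69.3) was above Junb (31.7) and Ier2 (31.1), which overlapped, and Fos (0.428) was again last. In vehicle tumours the order per kilobase was Junb (264), Egr1 (160), Ier2 (126), Btg2 (116), Fos (81.9), Jun (64.1), Atf3 (56.1), Dusp1 (38.1), Nr4a1 (13.2) and Fosb (8.24), with every pair of neighbours overlapping. Under palbociclib Junb (128) was again first and Fosb (2.61) last, and Dusp1 (17.2) and Nr4a1 (3.91) were the only neighbours that did not overlap. The length joins the exons of all annotated transcripts, 6243 bases for Fosb and 3509 for Nr4a1. A shorter transcript in use would raise the value of Fosb, so its last place rests on that length. Fos was thus last of 9 in the livers, at 0.616 to 1.83 CPM, and at 10.4 to 330 CPM in the tumours. The experiments were normalized separately and differ in tissue and library, so no test was made between them.

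The genes closest in pattern to the mean of the set were found by the root mean square difference between centred log2(CPM + 1) profiles. In the 9 livers, where the mean profile itself has a root mean square of 0.267, they were 2310061I04Rik (0.0803), Gch1 (0.0823), Rbms1 (0.0884), Rhoc (0.0933) and Bri3bp (0.0977), of 9888 genes compared. Gch1 codes for the first enzyme of tetrahydrobiopterin synthesis and Rhoc for a small GTPase. Over the 10 tumours, with 0.952 for the mean profile itself, they were Apold1 (0.385), Arid5a (0.473), Gdf15 (0.541), Coro7 (0.548) and Kctd11 (0.563), of 9904 genes. Apold1 was at 6.10 to 26.7 CPM under vehicle and 2.66 to 7.74 CPM under palbociclib, and Gdf15, a secreted stress cytokine, at 49.1 to 269 and 22.1 to 110 CPM.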

How the data were processed

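For the embryo livers the authors deposited 1 table of counts per gene symbol from poly-A selected RNA, aligned with STAR 2.5.1b per the submitters' processing notes. For the tumours the authors deposited CPM for each Ensembl ID, and the submitters' processing notes name cutadapt 2.10, HISAT2, featureCounts, DESeq2 and R 4.1.2, with the build mm10 for both experiments. Strand setting and annotation are not given in the sources used here. Scaled values in 9 further columns were not used.

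Livers were compared with edgeR 4.0.16 (quasi-likelihood, TMM, filterByExpr) in R 4.3.3. Tumours were compared with limma 3.58.1 (trend) on log2(CPM + 1), keeping genes whose mean reached 1 CPM. Fold changes on that scale understate those of low genes. The Benjamini-Hochberg adjustment ran over all genes tested, with a threshold of 0.05. GENCODE release 21 (GRCm38) gave positions, exon lengths and a symbol for 17469 tumour IDs. Of the deposited tumour CPM values, 100% were whole multiples of 1 read (tolerance 0.001), so reads could be recovered for count tests. The fits were tested on simulated data.

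The 10 genes and all lists were chosen with earlier results of these data known. All 10 were named. Of each other list up to 4 genes per direction past the threshold with the largest fold change were named, or 2 with the smallest p where none passed. The 5 genes of most similar pattern came from those outside the lists that averaged 5 CPM or more. No pair of libraries matched within sampling noise (chi-square per degree of freedom of 12.5 or more). Alternatives were DESeq2 1.42.0, other size factors and filters, covariates, a pseudocount of 0.1 CPM, a block for tumour number and each library left out. Floors are limits of counting alone, because PCR copies of a molecule cannot be recognised here.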

Additional observations from a re-analysis of the deposited data

Results flagged for a closer look

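Among 118 groups of 4 or 5 values screened, 6 held a library far from the others of its group, against 5.9 expected, since chance sets apart about 1 in 20. None of the 10 immediate early genes was among them. In the livers these were Rps6ka3 in fusion 6 at 23.98 CPM (the other fusion livers at 17.2 to 18.0 CPM), Bri3bp in control 4 at 36.9 CPM (the other controls at 43.9 to 46.5 CPM) and the depth of fusion 6 at 45.6 M counts (M for 1000000). In the tumours they were all in vehicle 1: Klf2 at 40.2 CPM (the other vehicle tumours at 4.56 to 8.80 CPM), Dusp2 at 12.7 CPM (the others at 0 to 1.60 CPM) and a mitochondrial share of 46.6% of the reads (the others at 1.24% to 4.12%).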

How the results depend on the processing

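In the livers 16 alternatives were run, and 2 moved the count of 3 immediate early genes past the threshold by over 1.5 times: it was 6 with the ribosomal protein split as a covariate and 1 without fusion 8, with 1 to 3 over the 9 fits that left out 1 liver. The count over all genes, 1704, became 4345 with that covariate, 2589 within the 4 livers of higher ribosomal protein share, 2950 within the other 5, and 969 to 1581 with 1 liver left out (969 without control 3, 1107 without fusion 7, 987 without fusion 8). Junb kept its call in all 16, Jun in 13 and Dusp1 in 15. Log2 fold changes turned sign for Fos (0.0363 within the 5 livers, and from -0.42 to 0.16 with 1 liver left out, 0.05 without fusion 9 and 0.16 without control 5) and Nr4a1 (-0.0835 within the 5 livers). The cause was not tested.

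In the tumours 20 alternatives kept all 10 genes below 0 and called 0 of them, and leaving out 1 tumour gave 0 genes in all past the threshold each time. DESeq2 on recovered reads gave 5 genes past the threshold in place of 0, and the cause was not tested. Jdp2 turned to 0.0539 without vehicle 1 and 5, and Elk1 to -0.0296 with limma-voom. With tumour number as a replicate block 0 genes passed, 0 of the 10 among them. Same-numbered tumours did not deviate together (correlations of -0.32 to 0.0022, 0 of 5 pairs over 0.1), and 0 of 10 tumours correlated best with their own number. Whether they share more than a number is not given in the sources used here, and these correlations cannot decide it. No paired analysis was possible for the livers because their numbers are not shared between genotypes. The shallowest library, vehicle 5 with 2.96 M reads (M for 1000000), limits what low genes such as Fosb can show.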
